A study of Sus scrofa with 12 samples.

Results

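Matrix metalloproteinases (MMPs) and their tissue inhibitors (TIMPs) were followed in the uterus of newborn gilts, which are young female pigs. The 8 genes were MMP2, MMP7, MMP9, MMP11, MMP14, TIMP1, TIMP2 and TIMP3, of 20390 protein-coding genes in the deposited table. They were looked up by gene symbol, TIMP3 being spelled TIMP-3 in the table. MMP7 was chosen by its measured difference from birth, which was greater in nursed gilts, so its values are given as a description with no test. MMP2 and MMP9 were listed as known targets of early nursing and the others as relatives and inhibitors. The uterine RNA came from 12 gilts in 3 groups of 4, with 1 library per animal. PND2N gilts (postnatal day 2, nursed) had nursed freely for 48 h, PND2R gilts had been fed a commercial milk replacer for 48 h, and both were sampled at 50 h of age. PND0 gilts were sampled within 1 h of birth, before nursing. All gilts were of mixed breed, with Duroc, Hampshire, Landrace and Yorkshire in the cross, and all samples were whole uteri freed of connective tissue. The labels name no litter for any gilt.

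MMPs are zinc-dependent proteases that are made as inactive proenzymes and cut proteins of the extracellular matrix and of the cell surface. TIMPs bind their active sites, so that proteolysis in a tissue depends on both sides. MMP14, which sits in the cell membrane, activates pro-MMP2 with TIMP2 as the bridge between them. In the uterus these proteases take part in the remodelling that goes with gland growth, the cycle and pregnancy.

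The deposited values were normalized by the authors by a method not given in the sources used here, and the lowest value in each library was 1. Library totals ran from 26534074 to 29544130, and read depth is not known. The values carry no stated correction for gene length, so a difference in value between genes is not a difference in transcript number. The uterine genes HOXA10 and HOXA11, which pattern the female tract, stood at 3468 to 8409 and at 3827 to 8542 over the 12 libraries. In the libraries PND2N 1, PND2R 2 and PND2R 3 the muscle filament gene DES was at 40049, 33144 and 29022, against 7460.08 to 23439.7 in the other 9. They differed in more than muscle RNA. In the same order ADAM10 was at 11.5, 17.3 and 23.4, against 165 to 399 in the other 9. HSPG2 was at 3612, 2859 and 4304, against 12333 to 38075, and PCOLCE at 18307, 16570 and 19153.5, against 5798 to 9310. The share of genes at 1 was 22.1%, 21.9% and 21.3%, against 17.8% to 20.4%. What sets these libraries apart was not tested, and high DES is only a label for them. The libraries PND0 1 and PND0 2 held more epithelial RNA than PND0 3 and PND0 4, with summed values of the 12 epithelial markers measured of 118164 and 122506, against 34185 and 26527. The differences of the 7 genes tested from PND0 are also given without PND2N 1, PND2R 2 and PND2R 3. In whole tissue, fewer cells of a type and less RNA per cell cannot be told apart.

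MMP7 (matrilysin), a small secreted protease of epithelia, lies on chromosome 9 from 38104906 to 38115301 (minus strand, Sscrofa10.2). It stood at 393, 499, 491 and 866 in the 4 PND2N libraries, at 162, 189, 141 and 247 in the 4 PND2R libraries, and at 11.2, 41.0, 51.4 and 11.8 in the 4 PND0 libraries. The 3 groups did not overlap, with every nursed animal above every replacer-fed animal and every replacer-fed animal above every newborn. Group levels were 562 ± 208 in PND2N, 185 ± 45.8 in PND2R and 28.8 ± 20.5 in PND0 (mean ± SD, n = 4 each). On the log2(value + 1) scale the difference was 4.48 ± 0.49 (± SE) for PND2N versus PND0, 2.91 ± 0.49 for PND2R versus PND0 and 1.57 ± 0.49 for PND2N versus PND2R. These values chose the gene and support nothing further. As background, the groups did not overlap for 16.0%, 28.3% and 2.55% of all genes tested in these 3 comparisons.

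The epithelial markers stood as follows beside MMP7. Their sum was 56641 to 100119 in PND2N, 79513 to 100438 in PND2R and 26527 to 122506 in PND0. Of the 12 measured, 6 had a higher mean in PND2N than in PND0 and 8 had a higher mean in PND2R than in PND0. KRT18, a keratin of simple epithelia, was at 4712 to 12547 in PND2N, 8343 to 12408 in PND2R and 1753 to 7886 in PND0, so that PND2R lay wholly above PND0. Its partner KRT8 was at 24683 to 39889 in PND2N, 31982 to 40042 in PND2R and 11099.6 to 51645 in PND0. EPCAM, an adhesion molecule of epithelia, averaged 126 in PND2N, 124 in PND2R and 298 in PND0. The part of epithelial content in the MMP7 values was not tested.

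**Figure D1:**
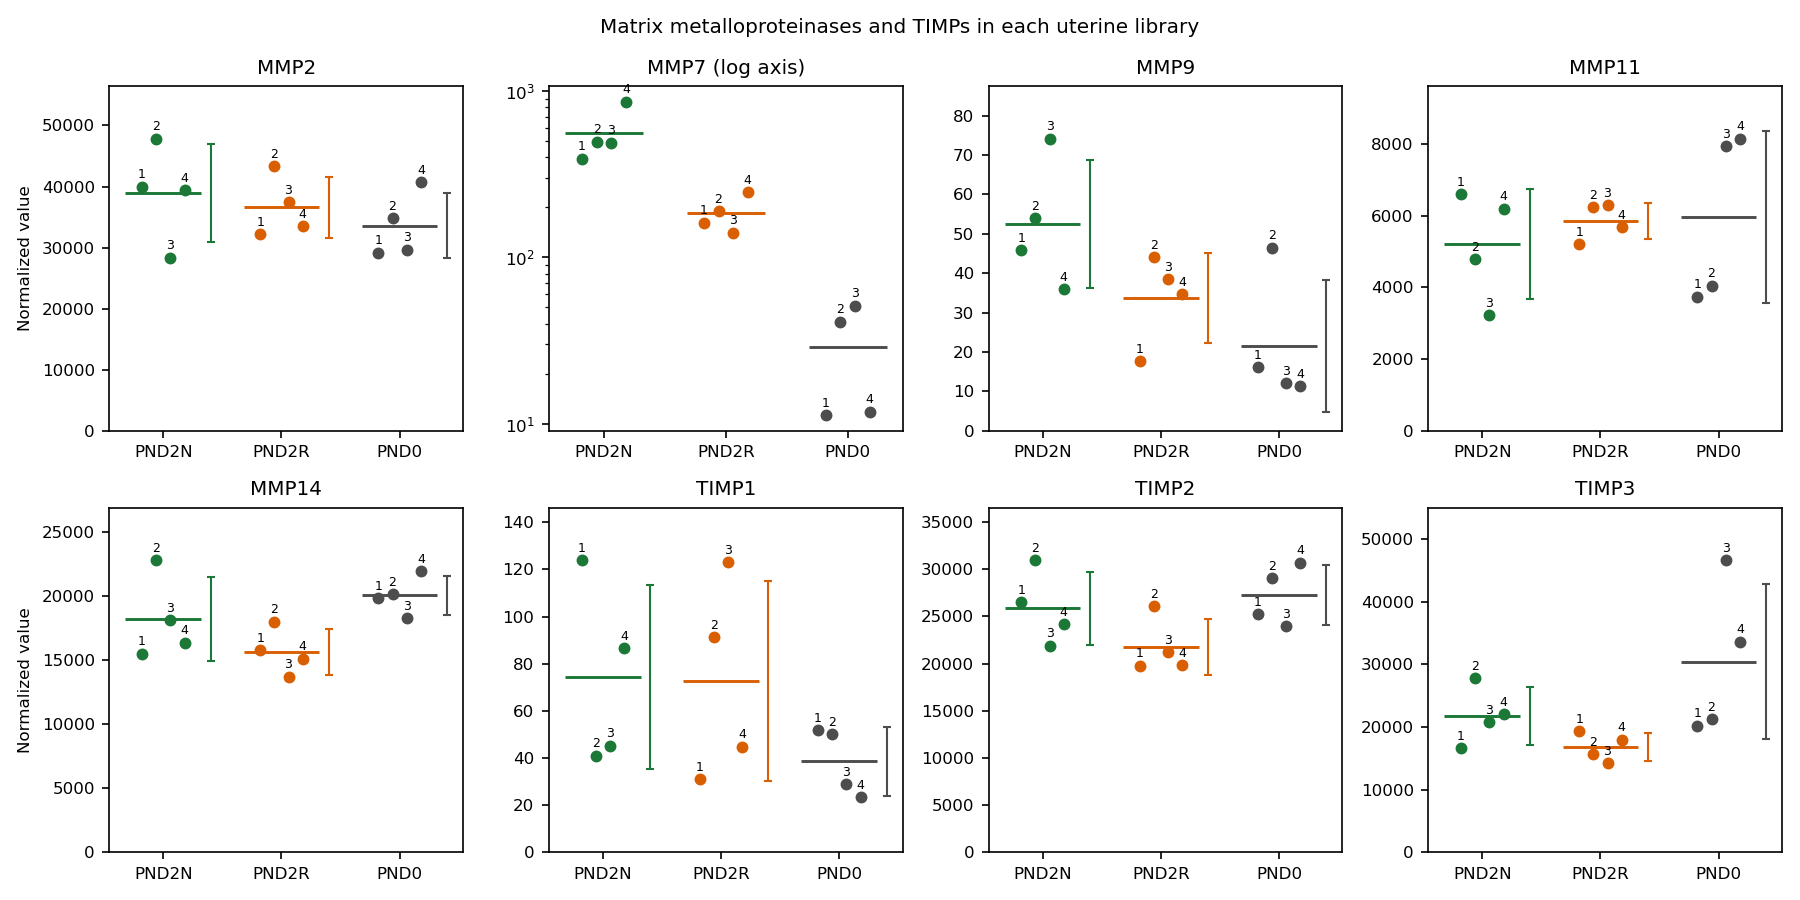
Normalized value of each of the 8 genes (y axes, arbitrary normalized units, log axis for MMP7 only) in the 12 libraries by group (x axes). Points are libraries labelled by replicate number, horizontal lines are group means and bars beside the points are SDs (not drawn for MMP7). MMP7 shows 3 groups without overlap, and the spread of TIMP3 and MMP11 is widest among the newborns.

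MMP7 lies at one end of a run of MMP genes. The interval from 38104906 to 38512554 on chromosome 9 holds 10 entries over 408 kb, all of the MMP family. The next entry, listed as MMP25 but with the gene ID of MMP20 (enamelysin, an enzyme of tooth enamel), reached 3.72 in PND2N and was at 1 in all PND2R and PND0 libraries. MMP27 was at 1 to 4.18 in PND2N, 1 to 2.20 in PND2R and 1 to 3.45 in PND0. MMP8, the collagenase of neutrophils, was at 1 to 1.21 in PND2N, 1 to 2.96 in PND2R and 1 to 9.37 in PND0. MMP12, the elastase of macrophages, was at 2.42 to 11.6 in PND2N, 1 to 2.22 in PND2R and 1 to 7.34 in PND0. MMP3, stromelysin 1, was at 1 to 18.7 in PND2N, 4.67 to 10.6 in PND2R and 1.96 to 6.90 in PND0. MMP1, the interstitial collagenase, was at 1 to 33.3 in PND2N, 11.7 to 33.2 in PND2R and 8.69 to 26.9 in PND0. MMP13, collagenase 3, was at 4.84 to 11.8 in PND2N, 1.11 to 4.40 in PND2R and 4.19 to 17.7 in PND0. Of the 9 entries beside MMP7, 6 had enough values above 1 to be tested, and 0 passed in any of the 3 comparisons.

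**Figure D2:**
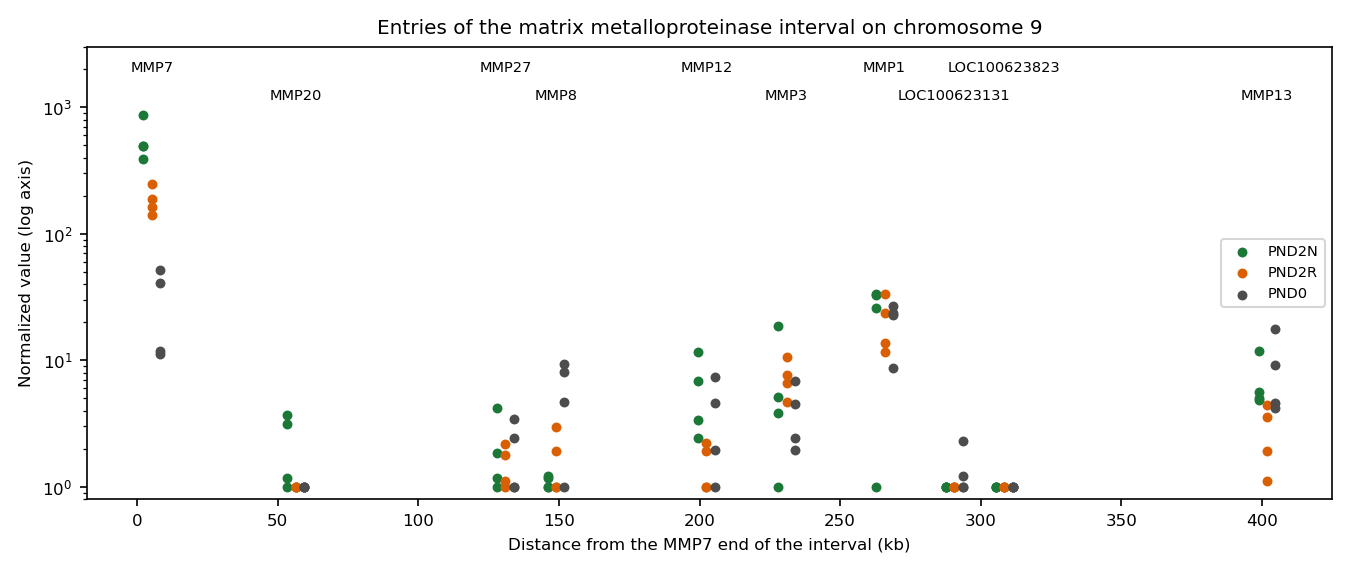
Normalized value (y axis, log scale) of the 10 entries of the MMP interval on chromosome 9, placed by distance in kb from the MMP7 end (x axis). Each point is 1 library coloured by group, with the groups shifted slightly sideways. MMP7 runs from 11.2 to 866 with the 3 groups apart, while the other entries run from 1 to 33.3 with PND2N and PND0 overlapping in each. In MMP12 and MMP13 all PND2N libraries are above all PND2R libraries, at low values. This order cannot be told apart from the scaling of single libraries. Heights are not corrected for gene length.

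Of the 11924 other genes with a symbol, those whose log2 values were most like MMP7 over the 12 libraries were ARMC10, LAMTOR3, DPAGT1, TTPAL and SERPINB8, with Pearson r from 0.94 to 0.96. These are the highest values of a search, so no test goes with them, and all 12 points share the same group differences. With the group means taken out, r was 0.69 for ARMC10, 0.64 for LAMTOR3, 0.91 for DPAGT1, 0.67 for TTPAL and 0.80 for SERPINB8. Their spans were far narrower than that of MMP7. SERPINB8, a serine protease inhibitor of the serpin family, was at 312 to 369 in PND2N, 249.5 to 267 in PND2R and 187 to 241 in PND0. DPAGT1, which starts the synthesis of N-glycans, was at 1891 to 2079.95 in PND2N, 1854 to 1923 in PND2R and 1632 to 1857 in PND0. LAMTOR3, a scaffold of the lysosomal Ragulator complex, was at 1634 to 2066 in PND2N, 1523 to 1641 in PND2R and 1086 to 1363 in PND0.

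The other 7 genes were tested in limma with p adjusted over all 16862 genes tested, and 0 of 7 passed in PND2N versus PND0, where 3.32% of all genes passed. In PND2R versus PND0 0 of 7 passed, where 15.0% of all genes did, and in PND2N versus PND2R 0 of 7 passed, against 0.0119% of all genes. At an unadjusted p under 0.05 there was 1 of 7 (MMP9) for PND2N versus PND0, beside 23.9% of all genes, and there were 3 of 7 (MMP14, TIMP2 and TIMP3) for PND2R versus PND0, beside 37.0%. All 3 were lower in PND2R, as were 20.1% of all genes at that level. None had an unadjusted p under 0.05 in PND2N versus PND2R, where 2.68% of all genes did. Groups without overlap were found for 0 of 7 genes in PND2N versus PND0 (16.0% of all genes), 2 of 7 in PND2R versus PND0 (28.3%) and 0 of 7 in PND2N versus PND2R (2.55%). Counted in 1 direction, 42.9% of the 7 genes were lower in PND2R at an unadjusted p under 0.05, beside the 20.1% of all genes, and 28.6% lay wholly below PND0, beside 15.6% of all genes. With 7 genes, each gene is 14.3%. A gene that missed the threshold is not thereby shown to be equal between groups, and the intervals of each difference are given with it.

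MMP9 (gelatinase B, chromosome 17, 54461865 to 54468958) cuts denatured collagen and the type IV collagen of basement membranes and is carried by neutrophils and macrophages. It stood at 45.8, 53.9, 74.1 and 36.0 in PND2N, at 17.7, 44.1, 38.5 and 34.7 in PND2R, and at 16.1, 46.5, 12.1 and 11.4 in PND0. The nursed libraries were above 3 of the 4 newborn libraries, and PND0 2 alone reached into their range. The log2 difference was 1.44 ± 0.47 for PND2N versus PND0 (95% interval 0.40 to 2.47, adjusted p = 0.104), and without PND0 2 it was 1.88 with an adjusted p of 0.0400. For PND2R versus PND0 it was 0.79 ± 0.47 (interval -0.24 to 1.83, adjusted p = 0.235), with 1.23 without PND0 2 and 0.44 without the 3 high-DES libraries (adjusted p = 0.706). Leaving out those 3 gave 1.49 for PND2N versus PND0 (adjusted p = 0.142). Nursed and replacer-fed gilts overlapped, and their difference was 0.64 ± 0.47 (interval -0.39 to 1.68).

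Some macrophage markers moved with the same comparison. Of the 10 measured, 6 had a higher mean in PND2N than in PND0 and 3 a lower one, CSF1R, CD14 and MRC1. The complement gene C1QA averaged 1523 in PND2N, 1511 in PND2R and 885 in PND0, and CSF1R, the receptor for macrophage growth factors, averaged 711 in PND2N, 548 in PND2R and 912 in PND0. The summed value of the 10 measured macrophage markers was 11393 to 14196 in PND2N, 10187 to 14595 in PND2R and 5520.2 to 10647 in PND0. Within PND0 and PND2R it was highest in PND0 2 and PND2R 2, the libraries with the most MMP9 of those groups. In PND2N it went the other way. PND2N 3, with the most MMP9 of all 12 libraries, had the lowest macrophage sum of its group. Of these markers FCER1G was at 1 in all 12 libraries. For the 8 neutrophil markers measured the sum was 418 to 958 in PND2N, 482 to 847 in PND2R and 482 to 523 in PND0. The lowest of these sums was also in PND2N 3. Of these 8 markers, 7 had a higher mean in PND2N than in PND0 and 1, MPO, a lower one. In PND2R 5 had a higher mean than in PND0 and 3 a lower one. MPO, the neutrophil peroxidase, was between 1 and 4.60 in all libraries. The part of these cells in the MMP9 values was not tested. The genes most like MMP9 over the 12 libraries were C14H10orf128, KCNN4, BIN2, CD48 and COLGALT1, with r from 0.88 to 0.93, and from 0.80 to 0.86 with the group means taken out. KCNN4, a calcium-activated potassium channel, was at 152 to 221 in PND2N, 93.8 to 174 in PND2R and 54.0 to 159 in PND0, and among newborns it too was highest in PND0 2. CD48, a surface protein of leukocytes, was at 72.6 to 149 in PND2N, 80.8 to 129 in PND2R and 41.2 to 107 in PND0.

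MMP2 (gelatinase A, chromosome 6, 26925671 to 26953202) shares the substrates of MMP9 and is made mainly by stromal cells. It stood at 39962, 47842, 28355 and 39429 in PND2N, at 32240, 43299, 37461 and 33511 in PND2R, and at 29182, 34851, 29691 and 40672 in PND0. The 3 groups overlapped widely. On the log2 scale MMP2 differed by 0.20 ± 0.18 for PND2N versus PND0 (interval -0.18 to 0.58, adjusted p = 0.479), 0.13 ± 0.18 for PND2R versus PND0 (interval -0.25 to 0.51, adjusted p = 0.612) and 0.07 ± 0.18 for PND2N versus PND2R (interval -0.31 to 0.45). In fold terms the upper bounds from birth were 1.50 for PND2N and 1.42 for PND2R. Without the 3 high-DES libraries the log2 differences were 0.18 for PND2N and -0.018 for PND2R.

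MMP14 (chromosome 7, 80424500 to 80435472), the membrane-bound activator of pro-MMP2, stood at 15510.3, 22794, 18129 and 16362 in PND2N, at 15796, 17996, 13695 and 15099.7 in PND2R, and at 19806, 20120.1, 18276 and 21947 in PND0. All 4 PND2R libraries were below all 4 PND0 libraries, while the PND2N libraries overlapped with both. The log2 difference was -0.36 ± 0.14 for PND2R versus PND0 (interval -0.67 to -0.05, adjusted p = 0.0936), -0.15 ± 0.14 for PND2N versus PND0 (interval -0.46 to 0.16, adjusted p = 0.507) and 0.21 ± 0.14 for PND2N versus PND2R (interval -0.10 to 0.52). Without the 3 high-DES libraries it was -0.37 for PND2R versus PND0 (adjusted p = 0.226) and -0.081 for PND2N versus PND0. As background, the PND2R libraries lay wholly below the PND0 libraries for 15.6% of all genes tested.

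TIMP2 (chromosome 12, 3171979 to 3215644), which inhibits MMPs and also links pro-MMP2 to MMP14, stood at 26490.0, 30961, 21909 and 24153 in PND2N, at 19776, 26076, 21177 and 19859 in PND2R, and at 25225, 29077, 23950.0 and 30697 in PND0. In PND2R 3 of 4 libraries were below every newborn and PND2R 2 was within their range. On the log2 scale TIMP2 differed by -0.33 ± 0.15 for PND2R versus PND0 (interval -0.65 to -0.01, adjusted p = 0.125), -0.08 ± 0.15 for PND2N versus PND0 (interval -0.40 to 0.24, adjusted p = 0.753) and 0.25 ± 0.15 for PND2N versus PND2R (interval -0.07 to 0.57). It was -0.45 in PND2R (adjusted p = 0.182) and -0.094 in PND2N against PND0 without the 3 high-DES libraries.

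MMP2, MMP14 and TIMP2 peaked in the same animal of each group: PND2N 2, PND2R 2 and PND0 4 had the highest value of their group for all 3 genes. Ratios within a library do not depend on a single scale factor applied to the whole library. Other kinds of normalization could change them, and the authors' method is not known. The ratio of TIMP2 to MMP2 values was 0.663, 0.647, 0.773 and 0.613 in PND2N, 0.613, 0.602, 0.565 and 0.593 in PND2R, and 0.864, 0.834, 0.807 and 0.755 in PND0. All replacer-fed animals were below all newborns, and of the nursed animals only PND2N 3 reached the newborn range. The means were 0.674 ± 0.0692 in PND2N, 0.593 ± 0.0206 in PND2R and 0.815 ± 0.0466 in PND0 (SD, n = 4 each). For MMP14 over MMP2 the ratio was 0.388, 0.476, 0.639 and 0.415 in PND2N, 0.490, 0.416, 0.366 and 0.451 in PND2R, and 0.679, 0.577, 0.616 and 0.540 in PND0. Here too PND2R lay below PND0, and PND2N 3 was the nursed animal within the newborn range. TIMP2 over MMP14 overlapped in all 3 groups, at 1.21 to 1.71 in PND2N, 1.25 to 1.55 in PND2R and 1.27 to 1.45 in PND0. These ratios of normalized values are not molar ratios, and they were set up after the values were seen, so no test goes with them.

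**Figure D3:**
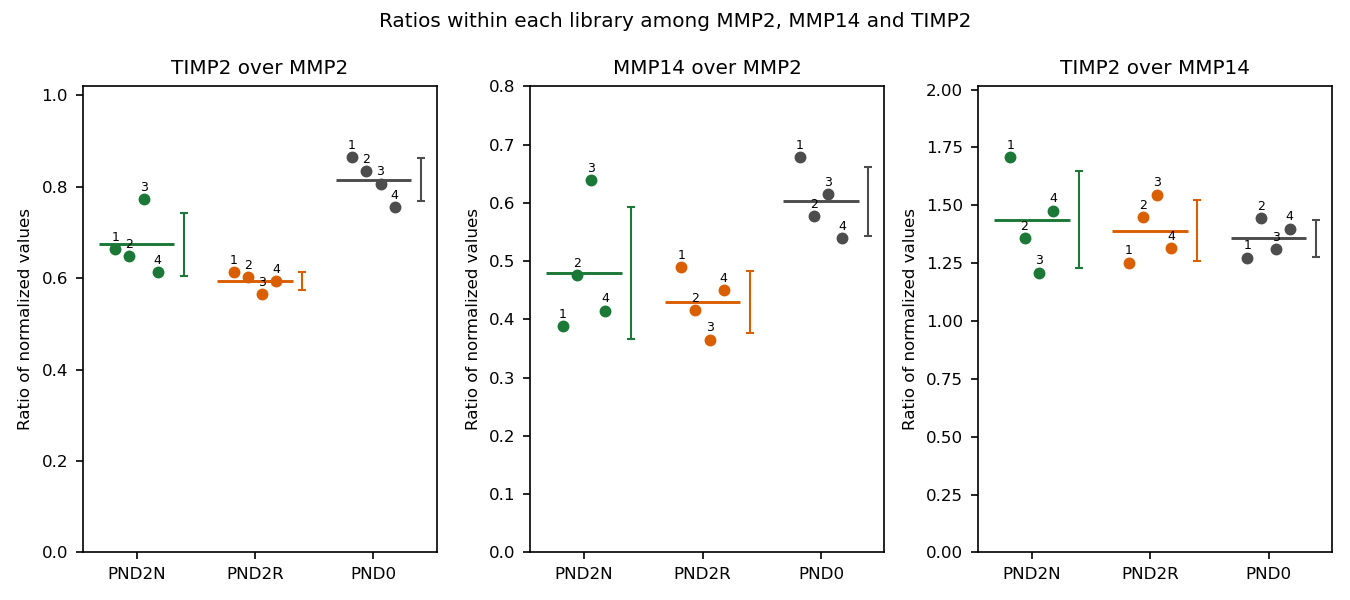
Ratio of normalized values (y axes) for 3 pairs of genes in each library, by group (x axes). Points are libraries labelled by replicate number, lines are group means and bars are SDs. TIMP2 over MMP2 is 0.565 to 0.613 in PND2R and 0.755 to 0.864 in PND0.

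TIMP3 (chromosome 5, 11964323 to 11977474) is the inhibitor that stays bound to the matrix, and it also blocks proteases of the ADAM family. It stood at 16622, 27844, 20799 and 22056 in PND2N, at 19297, 15664, 14277 and 17998 in PND2R, and at 20213, 21274, 46648 and 33659 in PND0. All 4 PND2R libraries were below all 4 PND0 libraries. The log2 difference was -0.78 ± 0.25 for PND2R versus PND0 (interval -1.33 to -0.23, adjusted p = 0.0566), -0.42 ± 0.25 for PND2N versus PND0 (interval -0.97 to 0.14, adjusted p = 0.320) and 0.36 ± 0.25 for PND2N versus PND2R (interval -0.19 to 0.92). Leaving out the 3 high-DES libraries gave -0.62 for PND2R (adjusted p = 0.277) and -0.29 for PND2N (adjusted p = 0.554) against PND0. The PND2R call turned on single libraries. It passed without PND2N 1 (-0.78, adjusted p = 0.0418), without PND0 1 (-0.95, adjusted p = 0.0432) and without PND0 2 (-0.92, adjusted p = 0.0446).

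MMP11 (stromelysin 3, chromosome 14, 54019770 to 54029536), a protease of stromal cells that is activated before it leaves the cell, stood at 6596, 4789, 3220.03 and 6189 in PND2N, at 5198, 6223, 6282 and 5668 in PND2R, and at 3744, 4043, 7935 and 8142 in PND0. PND0 3 and PND0 4 were above every day 2 library, PND0 1 and PND0 2 were below all PND2R and 3 of 4 PND2N libraries, and PND2N 3 was the lowest of all 12. On the log2 scale MMP11 differed by -0.16 ± 0.29 for PND2N versus PND0 (interval -0.79 to 0.47, adjusted p = 0.746), 0.06 ± 0.29 for PND2R versus PND0 (interval -0.57 to 0.69, adjusted p = 0.897) and -0.22 ± 0.29 for PND2N versus PND2R (interval -0.85 to 0.41). Without the 3 high-DES libraries it was -0.29 for PND2N and -0.043 for PND2R, each against PND0.

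Within PND0, TIMP3 and MMP11 were both higher in PND0 3 and PND0 4 than in PND0 1 and PND0 2. Those are the libraries with the lower epithelial sums of 34185 and 26527. The summed value of the 10 stromal markers measured was 361757 and 414076 in PND0 1 and PND0 2, against 469135 and 474830 in PND0 3 and PND0 4. The part of tissue makeup in these values was not tested. MMP2, MMP14 and TIMP2 did not follow that split, with PND0 3 at the lowest newborn value for MMP14 and TIMP2 and PND0 4 at the highest for all 3.

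TIMP1 (chromosome X, 45451575 to 45454614), the secreted inhibitor that also binds pro-MMP9, stood at 124, 41.0, 45.3 and 86.6 in PND2N, at 31.0, 91.2, 123 and 44.8 in PND2R, and at 51.7, 50.2, 28.9 and 23.6 in PND0. PND2N 1, PND2N 4, PND2R 2 and PND2R 3 were above every newborn, and the other 4 day 2 libraries were within the newborn range. The log2 difference was 0.86 ± 0.51 for PND2N versus PND0 (interval -0.26 to 1.97, adjusted p = 0.313), 0.77 ± 0.51 for PND2R versus PND0 (interval -0.34 to 1.89, adjusted p = 0.283) and 0.09 ± 0.51 for PND2N versus PND2R (interval -1.03 to 1.20). The 3 libraries of high DES were among the 4 with high TIMP1, and without them the PND2N versus PND0 difference was 0.56 (adjusted p = 0.447) and the PND2R versus PND0 difference was 0.03 (adjusted p = 0.978). The 8 smooth muscle markers measured summed to 339199 in PND2N 1 and to 122550 to 221606 in the other PND2N libraries. In PND2R they summed to 264010 in PND2R 2 and 268108 in PND2R 3, against 162443 and 177694 in PND2R 1 and PND2R 4. Genes outside muscle, such as PCOLCE, were high in the same 3 libraries. The share of muscle, or of other differences between these libraries, in the TIMP1 values was not tested.

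The level of TIMP1 is uncertain because the table holds a second entry of a similar description. LOC100625817, described as similar to metalloproteinase inhibitor 1, lies on chromosome X from 45235589 to 45239684. How alike the 2 entries are in sequence was not computed. If they are near-identical copies, reads could have been split between them by the authors' counting. LOC100625817 stood at 530, 264, 222 and 411 in PND2N, at 195, 495, 542 and 245 in PND2R, and at 291, 321, 244 and 264 in PND0. It was high in the same 4 day 2 libraries as TIMP1. As a measure of whether both entries move in parallel, the TIMP1 value was 0.155 to 0.234 of it in PND2N, 0.159 to 0.227 in PND2R and 0.0893 to 0.178 in PND0. With the 2 entries summed, the log2 difference was 0.35 ± 0.38 for PND2N versus PND0 (adjusted p = 0.571) and 0.34 ± 0.38 for PND2R versus PND0 (adjusted p = 0.532). The sum was chosen after the values were seen.

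**Figure D4:**
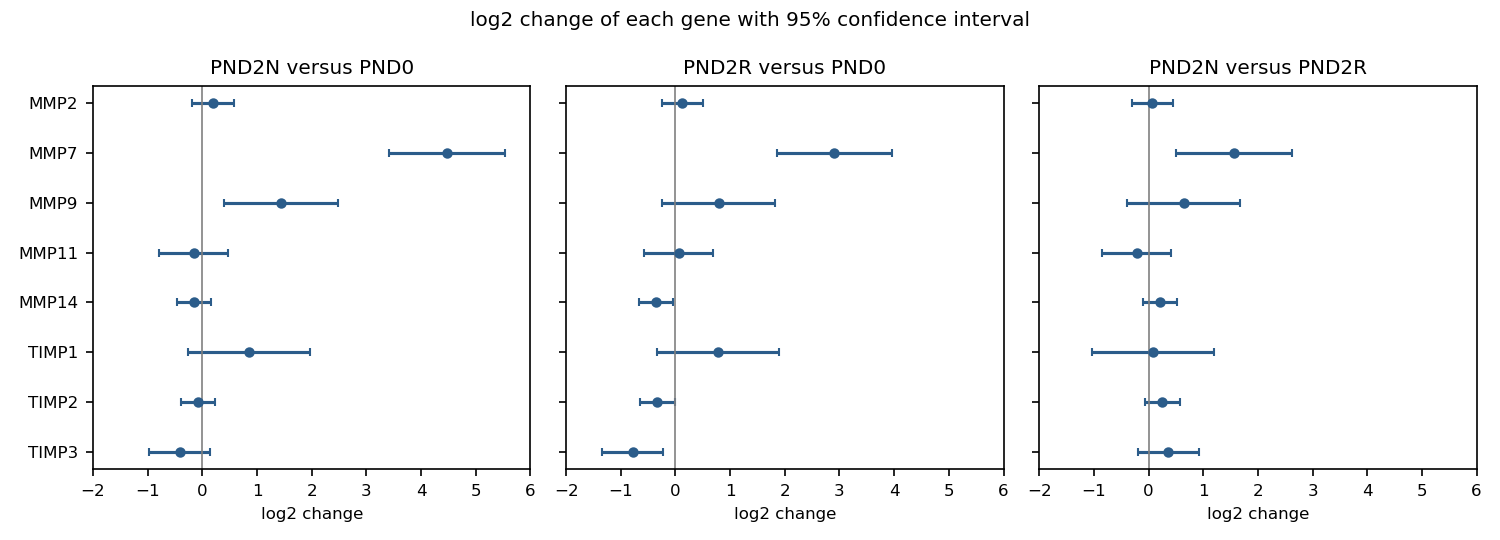
The log2 change of each of the 8 genes (x axes) in the 3 comparisons, with 95% confidence intervals as bars and 0 as the grey line. MMP7 is at 4.48, 2.91 and 1.57, and the intervals of the other 7 genes in PND2N versus PND2R all include 0.

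Of the other MMPs and TIMP4, 14 of 19 listed genes were found and 13 were tested. In PND2N versus PND0 the list had a median log2 change of 0.02 beside -0.04 for all genes. Beside 3.32% of all genes passing in either direction, and 322 of 16862 that rose, 1 of the 13 rose (7.69%). It was MMP19, a protease of basement membranes, at 696, 933, 631 and 888 in PND2N and 456, 563, 284 and 313 in PND0, with no overlap (1.00 ± 0.25, adjusted p = 0.0490). The call held in 2 of the 12 fits that left out 1 library, and leaving out the 3 libraries of high DES gave a change of 1.05 (adjusted p = 0.0708). In PND2R versus PND0 0 of 13 passed in limma and 5 had an unadjusted p under 0.05 (37.0% of all genes did), with a median of -0.03 beside -0.06 for all genes, and MMP19 stood at 568, 779, 568 and 605 in PND2R (0.68 ± 0.25, adjusted p = 0.0733). In PND2N versus PND2R 0 of 13 passed, and 2 had an unadjusted p under 0.05, beside 2.68% of all genes. They were MMP12 (1.33 ± 0.51) and MMP13 (1.07 ± 0.48), both of low value and both in the MMP7 interval. For each of them every PND2N library was above every PND2R library. Those 2 groups did not overlap for 2.55% of all genes. For MMP12 the closest values were 2.42 in PND2N 1 and 2.22 in PND2R 1, each the commonest low value (step) of its library. For MMP13 they were 4.84 in PND2N 1 and 4.40 in PND2R 3, where the steps are 2.42 and 2.20. At such values a lack of overlap cannot be told apart from the scaling of single libraries.

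Other proteases of the matrix showed few calls. Of 23 ADAM and ADAMTS genes tested, 0 passed in PND2N versus PND0, with 1 at an unadjusted p under 0.05 (23.9% of all genes). In PND2R versus PND0 10 had an unadjusted p under 0.05, beside 37.0% of all genes. There, beside 15.0% of all genes passing in either direction and 1232 of 16862 that fell, 3 of the 23 fell (13.0%). They were ADAMTS15 (-1.36 ± 0.42), ADAMTS16 (-1.40 ± 0.39) and ADAMTS19 (-1.65 ± 0.48), members of a family of secreted metalloproteases. ADAMTS16 was at only 1.91 to 2.22 in PND2R and 2.45 to 11.8 in PND0, close to the lowest steps of these libraries. Of 8 plasminogen system genes tested, 0 passed in each comparison with birth in limma. At an unadjusted p under 0.05 there were 1 for PND2N and 2 for PND2R, beside 23.9% and 37.0% of all genes. PLAT, the tissue plasminogen activator, was at 7868 to 12543 in PND2N and 4323 to 6649.6 in PND0 without overlap (0.77 ± 0.20, adjusted p = 0.0525), and passed without the 3 libraries (0.88, adjusted p = 0.0472). It was named after its values were seen. Of 8 cathepsins and cystatins tested, 0 passed in PND2N versus PND0 (3 at an unadjusted p under 0.05, as for 23.9% of all genes). In PND2R versus PND0, beside 15.0% of all genes passing in either direction and 1299 of 16862 that rose, 1 of the 8 rose (12.5%). It was CTSS, a lysosomal protease of antigen-presenting cells, at 38.6 to 50.0 in PND2R and 15.2 to 28.2 in PND0 (0.97 ± 0.30). Without the 3 libraries these 4 genes no longer passed (adjusted p from 0.177 to 0.277), with changes of -1.15 for ADAMTS15, -1.41 for ADAMTS16, -1.12 for ADAMTS19 and 0.91 for CTSS. Of the 12 fits that left out 1 library, the call held in 3 for ADAMTS15, 6 for ADAMTS16, 7 for ADAMTS19 and 2 for CTSS.

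Among 14 other inhibitors, activators and partners tested, 0 passed in PND2N versus PND0, with 1 at an unadjusted p under 0.05 (23.9% of all genes). In PND2R versus PND0 3 fell (21.4%), beside 15.0% of all genes passing in either direction and 1232 of 16862 that fell. The list median there was -0.52. TFPI2, a Kunitz-type inhibitor of serine proteases in the matrix, was at 3664 to 6841 in PND2R and 7855 to 10258.5 in PND0 (-0.84 ± 0.20, adjusted p = 0.0222). It still passed without the 3 libraries (-1.16, adjusted p = 0.0304), and the call ended only without PND2R 3 or PND0 4 in the fits that left out 1 library. CD44, a hyaluronan receptor that can dock MMP9 (-1.30 ± 0.35), and THBS1, thrombospondin 1 (-1.81 ± 0.51), also fell, and without the 3 libraries neither passed, with -0.73 for CD44 (adjusted p = 0.169) and -1.20 for THBS1 (adjusted p = 0.248). RECK, a membrane-anchored MMP inhibitor, was at 2693.5 to 4586 in PND2N, 1938 to 2927 in PND2R and 2344 to 4058 in PND0, with 0.08 ± 0.23 for PND2N versus PND0 (adjusted p = 0.858) and -0.39 ± 0.23 for PND2R versus PND0 (adjusted p = 0.236).

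The substrates of these proteases gave the most calls of the lists examined. Of 15 tested, 1 fell in PND2N versus PND0 (6.67%), beside 3.32% of all genes passing in either direction and 238 of 16862 that fell. In PND2R versus PND0 4 fell (26.7%), beside 15.0% of all genes passing in either direction and 1232 of 16862 that fell. The list medians were -0.66 and -1.30. ELN, the elastin gene, was at 3766, 4653, 3839 and 3239 in PND2N, 2616, 3775, 3095 and 2620.1 in PND2R, and 9752, 7208, 6163 and 8754 in PND0. All day 2 libraries were below all newborns, with -1.03 ± 0.18 for PND2N (adjusted p = 0.0213) and -1.39 ± 0.18 for PND2R (adjusted p = 0.00391). The PND2R call held whichever single library was left out and without the 3 libraries (-1.58, adjusted p = 0.0189). The PND2N call held without the 3 libraries (-1.02, adjusted p = 0.0394) and ended without PND2N 1, PND2N 4 or PND0 4 alone, and also with only PND2N and PND0 in the fit. The basement membrane collagens COL4A1 (-1.33 ± 0.32) and COL4A2 (-1.81 ± 0.42), substrates of MMP2 and MMP9, and the fibrillar collagen COL5A1 (-1.30 ± 0.27) fell in PND2R. These 3 calls ended without the 3 libraries, with changes of -0.99, -1.12 and -1.24 (adjusted p from 0.0819 to 0.108). The summed value of the 9 endothelial markers measured was 10783 to 15972 in PND2N, 9405 to 9827 in PND2R and 12249.5 to 19857.5 in PND0, with PND2R wholly below PND0. VWF, a product of endothelium, averaged 862 in PND2N, 334 in PND2R and 2226 in PND0. In PND2N 1, PND2R 2 and PND2R 3 it was at 24.2, 55.8 and 90.2, where the endothelial sum was 11582, 9436 and 9827. In the other libraries VWF was at 810 to 1733 in PND2N, 591 and 599 in PND2R and 1836 to 3194 in PND0. Of the 9 endothelial markers, 7 had a lower mean in PND2R than in PND0, and their part in the collagen values was not tested.

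AP-1 and ETS motifs are the elements through which many MMP promoters respond. Of 9 genes for factors that bind them, 0 passed in PND2N versus PND0, with 2 at an unadjusted p under 0.05 (23.9% of all genes). In PND2R versus PND0 2 fell (22.2%), beside 15.0% of all genes passing in either direction and 1232 of 16862 that fell. JUN, spelled C-JUN in the table, was at 6029, 7225, 6138 and 6118 in PND2R and 9348, 20027, 15495 and 12899 in PND0 (-1.13 ± 0.32, adjusted p = 0.0389). FOS had a change of -1.14 ± 0.35 (adjusted p = 0.0496). Without the 3 libraries the changes were -1.20 for JUN (adjusted p = 0.0656) and -1.40 for FOS (adjusted p = 0.0967), no smaller but past the threshold no longer, and each call held in 3 of the 12 fits that left out 1 library. In PND2N versus PND0 the JUN change was -1.15 (adjusted p = 0.0697), and it passed without the 3 libraries (-1.50, adjusted p = 0.0338). In PND2N versus PND2R 0 genes of these 7 lists passed.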

How the data were processed

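Uterine RNA of 12 gilts was made into mRNA libraries and sequenced, per the labels' protocols. The authors deposited a signal table, with 1 normalized value per gene and library and a lowest value of 1. For the aligner, the counting and the normalization no method was found in the labels or headers. The submitters' processing notes name bcl2fastq and Sscrofa 10.2, the build of all coordinates. The step of a library was taken as its commonest low value and was not shown to be 1 read. Only 23.1% to 28.1% of low values lay within 0.02 of a whole number of steps, and most did not. Whole reads were thus not recovered, no count test was run and precision rests on the 4 libraries per group. Symbols came from the table or, by gene ID, from a Sscrofa11.1 gene table used for names only, giving 13077 of 20390 genes a symbol. No pair of libraries was identical.

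The main test was limma 3.58.1 in R 4.3.3 on log2(value + 1), over genes above 1 in at least 4 of 12 libraries (16862 genes). All 3 groups shared one fit with trended, robust empirical Bayes. Tests were two-sided with Benjamini-Hochberg adjustment over all genes tested and a threshold of 0.05. Fold changes on this scale understate the change of low genes. The procedure was tested on simulated data. The labels do not say whether gilts shared a litter. The p-values treat all gilts as independent, and they would be too small if gilts within a group were littermates. Genes named from lists were those past the threshold, at most 4 per list and comparison with the smallest p, plus the 5 genes most correlated with MMP7 and with any other of the 8 genes that differed at least 2-fold between group means; exceptions are stated. The genes and lists were chosen with earlier results of these data known. Alternatives covered the value added, the filter, scaling, the libraries fitted, moderation, library weights and left-out libraries. All sequences were left out.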

Additional observations from a re-analysis of the deposited data

Results flagged for a closer look

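MMP9 in the newborn group was the 1 of 27 groups of 4 values examined in which a library stood far from the others. PND0 2 was at 46.5, against 16.1, 12.1 and 11.4 in the other 3 newborns, a gap of 0.866 of the group's whole range. Chance alone marks about 5% of such groups. The same library had the highest newborn sum of macrophage markers. In PND2N the library with the most MMP9, PND2N 3, had the lowest such sum of its group. The part of those cells was not tested.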

How the results depend on the processing

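MMP7, chosen by its difference, ran over the alternatives from 4.15 to 4.85 for PND2N versus PND0, from 2.58 to 3.40 for PND2R versus PND0 and from 1.34 to 1.72 for PND2N versus PND2R, which is a description only. Quantile normalization moved the median of all genes by 0.14 in PND2R versus PND0. The number of the other 7 genes past the threshold stayed at 0 except when 1 library was left out, where it ran from 0 to 1 for PND2N versus PND0, from 0 to 1 for PND2R versus PND0 and stayed at 0 for PND2N versus PND2R. Over all genes, PND2N versus PND0 gave 560 calls, against 859 with no filter, 7 with only the compared groups fitted, 275 without the 3 libraries of high DES, and 26 (without PND2N 4) to 661 with 1 library left out. PND2R versus PND0 gave 2531, against 284 without the 3 libraries and 543 (without PND2R 2) to 4109 (without PND2N 1) with 1 left out. PND2N versus PND2R gave 2, against 1 with only the compared groups, 6 with library weights, 6 without the 3 libraries and 1 to 3 with 1 left out. Signs turned only for differences near 0. Without the 3 libraries PND2R versus PND0 was -0.018 for MMP2 and -0.043 for MMP11, and under quantile normalization PND2N versus PND2R was -0.024 for TIMP1. With 1 library left out, MMP11 ran from -0.35 to 0.054 for PND2N versus PND0 and from -0.13 to 0.24 for PND2R versus PND0, and PND2N versus PND2R ran from -0.036 to 0.22 for MMP2 and from -0.25 to 0.40 for TIMP1. The cause was not tested. No paired analysis was possible because the replicate numbers follow accession order and tie no animals together. Read depth is unknown, and 4 animals per group limit what can be called.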

Other observations

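TIMP4, an inhibitor of narrower tissue range, and MMP23B, a membrane-linked member of the family, differed in opposite directions in the 3 libraries of high DES, a pattern noticed after the values were seen. TIMP4 was at 2.42 in PND2N 1, 1 in PND2R 2 and 10.996 in PND2R 3, against 39.6 to 92.2 in the other PND2N libraries, 43.4 and 58.7 in the other PND2R libraries, and 74.0 to 161 in PND0. MMP23B was at 3415 in PND2N 1, 2701 in PND2R 2 and 2945 in PND2R 3, against 990.5 to 1832 in the other PND2N libraries, 1115 and 1501 in the other PND2R libraries, and 1152 to 2199.5 in PND0. For TIMP4 the log2 difference from PND0 was -1.90 in PND2N (adjusted p = 0.306) and -2.73 in PND2R (adjusted p = 0.103), and without those 3 libraries it was -0.88 and -1.03.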
